A study of Mus musculus with 6 samples.

Results

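The 59 genes described here encode axon guidance ligands and receptors, taken by symbol from a list of members of the Eph, ephrin, semaphorin, plexin, neuropilin, netrin, Slit and Robo families, and are 59 of the 32371 genes counted. They are 13 Eph receptors, 8 ephrins, 20 semaphorins, 9 plexins, 2 neuropilins, 2 netrins with the netrin receptor Dcc, and 2 Slits with 2 Robos. The expression data were RNA-Seq counts from 6 libraries of adult C57BL/6J mouse retinal cells, sorted as living cells positive for CD90.2, the product of the RGC marker gene Thy1. Before sorting, the eyes had received either AAV2-GFP, the control virus (3 libraries), or AAV2-Ezh2-Y726D (3 libraries), the optic nerve had been crushed 2 weeks later (ONC), and the cells were taken 3 days after ONC. Ezh2 is the histone H3K27 methyltransferase of Polycomb repressive complex 2, and Ezh2-Y726D is a catalytically dead form of it. Both groups therefore shared the strain, the virus serotype, the injury and the sort, and no uninjured retina was part of the comparison. The virus was delivered by intravitreal injection, and the counts do not distinguish transduced from untransduced cells.

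Axon guidance molecules steer growth cones during development by attraction or repulsion. Ephrins are membrane-bound ligands of Eph receptor tyrosine kinases, semaphorins signal through plexins, with neuropilins as the binding partners of most secreted class 3 semaphorins, netrins attract through Dcc, and Slits repel through Robos. In the visual system, gradients of EphA and EphB receptors across the retina meet ephrin gradients in the brain and order RGC axons into a map, Slit and Robo signaling shapes the path of the optic nerve, and Dcc guides RGC axons toward netrin at the optic disc. Several of these molecules, among them Sema3a and ephrin-B ligands, are known as inhibitors of axon growth in the injured adult CNS.

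The question addressed was which of these genes differed in expression between the Ezh2-Y726D and GFP libraries. Levels are given as CPM, the counts of a gene scaled to a common library size after TMM normalization. The level of Ezh2 itself, 22.7 to 26.4 CPM with GFP and 65.2 to 65.6 CPM with Ezh2-Y726D, was as the labels have it. Total counts ran from 9333244 to 23782520, and the rRNA gene CT010467.1 made up 50.9% and 52.2% of those of GFP replicates 2 and 3, against 2.55% to 16.1% elsewhere, so that members with few counts were measured least precisely in that pair of GFP libraries. Cells other than RGCs contributed to the RNA: per kb of exon, the Müller glia gene Glul stood at 895 CPM in the GFP libraries, against 35.2 CPM for Thy1. The summed level of 7 RGC markers overlapped between groups (428 to 441 CPM with GFP, 412 to 442 CPM with Ezh2-Y726D, with 2 markers called higher and 1 lower), whereas the sum of 7 amacrine markers was 631 to 705 CPM in GFP and 1068 to 1110 CPM in Ezh2-Y726D. The sums of 5 activated phagocyte markers (714 to 808 against 177 to 205 CPM) and of 4 pericyte markers (189 to 201 against 149 to 164 CPM) were lower with Ezh2-Y726D, and each of these markers was called lower. The sum of 5 Müller glia markers (7636 to 7988 against 6303 to 6490 CPM) differed mostly through Apoe, with means of 3099 and 1983 CPM. Of the Müller glia markers, 2 were called lower, and Glul, Rlbp1 and Aqp4 were not called. The cone (297 to 313 against 198 to 207 CPM, 4 of 4 called lower), bipolar (875 to 888 against 733 to 753 CPM, 4 of 5 lower and 1 higher) and microglia sums (386 to 436 against 301 to 354 CPM, 3 of 5 lower and 1 higher) separated as well, and so did that of 3 astrocyte markers (247 to 272 against 201 to 246 CPM, 1 called lower). The astrocyte sum was mostly Gfap (mean 230 in GFP against 188 CPM with Ezh2-Y726D), the marker called lower. Pdgfra had the higher mean with Ezh2-Y726D (29.2 against 33.55 CPM) and was not called, and Pax2 was too low to be tested. Every marker in these lists had more than 3 counts in some library. Their part in the results for the members was not tested. In such bulk RNA, fewer cells of a type and less RNA per cell cannot be told apart. As nothing in the labels says that the libraries came from separate mice, P values measure the spread between these libraries.

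All 59 members passed the filter on low counts. Of the 59, 23 (39.0%) were higher with Ezh2-Y726D and 10 (16.9%) were lower at an adjusted P under 0.05 in edgeR's quasi-likelihood test, and 26 were not called. Over the 18138 genes tested, 13.9% were called higher and 13.6% lower, so the share of members called higher was above that of all genes and the share called lower was near it. The members were also more abundant than the typical gene, with a median level of 30.5 CPM against 14.8 CPM, and their median SE on the log2 scale was 0.0679 against 0.0883. The changes were small. The members' median log2 fold change was 0.08 (0.0019 over all genes tested), with a range from -0.74 for Sema3c to 0.91 for Efna3.

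Differentially expressed genes (DEGs), which also had a fold change over 1.5, comprised 4 members. Efna3 and Sema3a were the 2 higher ones (3.39% of members, 2.52% of all genes) and Sema3c and Sema6d the 2 lower ones (3.39% of members, 5.5% of all genes), so neither share stood far from that of all genes. All of them are ligands, and none of the 27 receptors reached this threshold. With 4 DEGs and such low shares among all genes, this does not set ligands apart from receptors. Leaving out GFP replicate 3 or Ezh2-Y726D replicate 2 left Efna3 and Sema3c as the 2 remaining DEGs, because the log2 fold changes of Sema3a and Sema6d lay at the 1.5-fold threshold, while leaving out GFP replicate 1 gave 6 DEGs, with Sema4f and Sema6c added. The groups did not overlap for 37 members (62.7%, against 38.6% of all genes tested), of which 26 were higher and 11 lower with Ezh2-Y726D.

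Calls differed in how they held when a single library was left out. Of the 33 calls, 22 (16 higher and 6 lower) held with each of the 6 libraries left out in turn, and DESeq2 called the same 22. Without GFP replicate 1, the count of lower members fell from 10 to 6 and that of higher members from 23 to 20. The 11 calls lost in at least 1 of these fits were Epha2, Epha3, Epha6, Epha8, Epha10, Ephb6, Efna5, Sema5a, Sema6c, Sema7a and Plxnd1, and the library behind each is named below. DESeq2 did not call 7 of these 11 (Epha2, Epha3, Epha8, Epha10, Ephb6, Efna5 and Sema7a). Thinning all libraries to the depth of the shallowest ended 11 calls. Of these, 4 were kept by the fits above, Sema3b, Plxna4, Nrp1 and Dcc. The others were Epha2, Epha3, Epha6, Epha10, Efna5, Sema6c and Sema7a.

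**Figure D1:**
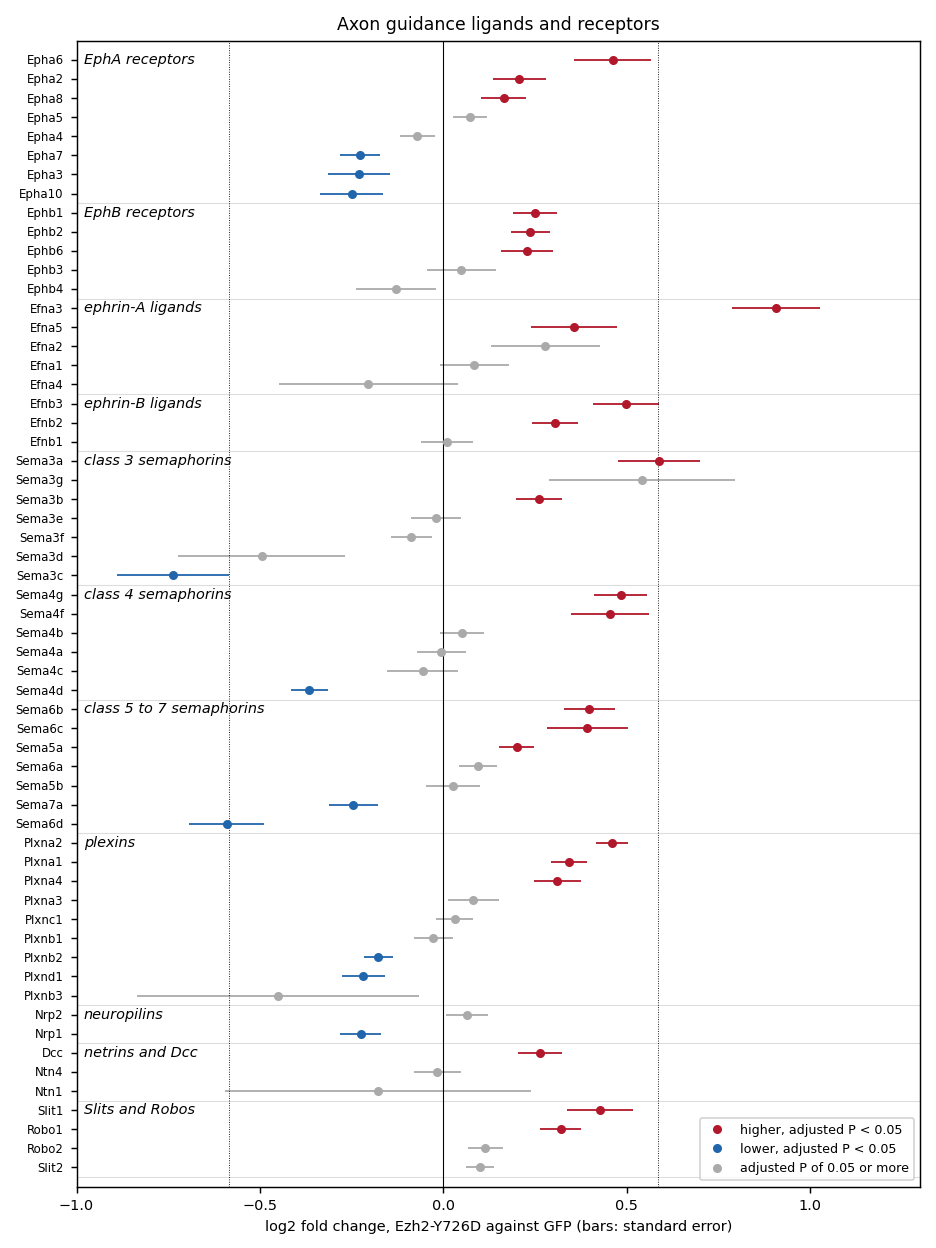
Log2 fold change of each of the 59 members (horizontal axis) with its standard error, grouped by family, from the 3 Ezh2-Y726D against the 3 GFP libraries. Red points are called higher, blue points lower and gray points neither, and the dotted lines mark a 1.5-fold change, which Efna3 (0.91) and Sema3a (0.59) pass upward and Sema3c (-0.74) and Sema6d (-0.59) downward.

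The sequences before the start sites of the DEGs are shown because their CG content differed widely and CG-rich promoters are the usual sites of Polycomb repressive complex 2. They are RefSeq sequences on GRCm38.p6, 250 bases upstream of the most upstream listed start, written 5′ to 3′ on the gene's strand with each CG dinucleotide, which reads the same on both strands, in capitals. The Efna3 window is chr3:89322940-89323189 on the minus strand, the Sema3a window chr5:13396534-13396783 on the plus strand and the Sema6d window chr2:124089719-124089968 on the plus strand. The last 26 bases of the Efna3 window lie within the gene in GENCODE vM21, as untranslated exon, although they precede the RefSeq start.
Efna3: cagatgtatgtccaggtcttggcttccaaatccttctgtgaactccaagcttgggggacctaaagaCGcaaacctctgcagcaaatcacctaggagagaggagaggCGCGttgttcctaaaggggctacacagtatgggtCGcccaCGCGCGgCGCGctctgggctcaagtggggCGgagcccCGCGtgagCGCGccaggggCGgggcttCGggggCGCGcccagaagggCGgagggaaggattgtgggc
Sema3a: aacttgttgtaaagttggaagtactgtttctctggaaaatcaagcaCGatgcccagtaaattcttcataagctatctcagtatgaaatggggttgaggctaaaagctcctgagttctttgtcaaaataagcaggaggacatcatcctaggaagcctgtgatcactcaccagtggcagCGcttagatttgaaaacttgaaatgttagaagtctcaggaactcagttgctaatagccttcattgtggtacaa
Sema6d: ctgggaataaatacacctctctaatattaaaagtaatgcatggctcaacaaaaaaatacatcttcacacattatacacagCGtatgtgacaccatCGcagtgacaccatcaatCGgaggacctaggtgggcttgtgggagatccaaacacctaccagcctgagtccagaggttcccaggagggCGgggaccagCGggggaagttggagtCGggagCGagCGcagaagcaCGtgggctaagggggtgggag

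Efna3 held 19 CG dinucleotides in this window, Sema6d 9 and Sema3a 2. Sema3c, for which the window lies within its annotated first exon and is not printed, held 39. Among all 32851 promoters listed, of any gene type, the median was 6, and 19.7% held at least as many as Efna3, 40.3% at least as many as Sema6d, 81.2% at least as many as Sema3a and 1.56% at least as many as Sema3c. The Sema3a start lies inside the longer gene model of GENCODE vM21, so other starts may be in use in these cells. Of the 59 members, 50 had an entry, with a median of 16 CG dinucleotides. The medians were 18 for the 17 members called higher, 16.5 for the 10 called lower and 15 for the 23 not called, with ranges of 2 to 46, 1 to 39 and 2 to 32, so neither direction was set apart by this count.

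Among the ephrins, 4 of 8 rose with Ezh2-Y726D and 0 fell, in edgeR (background 13.9% and 13.6%), with 4 and 0 at an unadjusted P under 0.05 and 3 and 0 in DESeq2. Efna3 encodes ephrin-A3, a ligand anchored to the membrane by GPI and known in astrocytes as well as neurons. Its level was 5.33, 4.64 and 4.31 CPM in GFP replicates 1, 2 and 3 and 9.58, 9.56 and 9.12 CPM in Ezh2-Y726D replicates 1, 2 and 3. Every Ezh2-Y726D library lay above every GFP library, by a log2 fold change of 0.91 (SE 0.12, n = 3 per group, edgeR adjusted P = 7.97e-07), the largest change among the members. In GENCODE vM21, 14.1% of the exonic bases of Efna3 overlap Gm15998 on the other strand, and whether counting used the strand is not given in the sources used here, so the level of Efna3 may include reads of its neighbor.

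Efna3 lies on chromosome 3 (89313899 to 89322965, minus strand) between Efna1 (89271733 to 89281142) and Efna4 (89333390 to 89338028), which are transcribed from the same strand. Their values did not follow it. Efna1 was at 10.9, 11.0 and 10.9 CPM in GFP replicates 1, 2 and 3 and 11.6, 12.3 and 11.1 CPM in Ezh2-Y726D replicates 1, 2 and 3, without overlap but with a log2 fold change of 0.08 (SE 0.0942, adjusted P = 0.58). Efna4 was low, at 1.29 to 2.21 CPM over the 6 libraries and as few as 10 counts in GFP replicate 3, with a log2 fold change of -0.20 (SE 0.243, adjusted P = 0.605). The count of Efna3 relative to that of Efna4, which needs no scaling between libraries, was 2.41, 3.27 and 2.60 in the GFP libraries and 5.10, 4.88 and 7.08 in the Ezh2-Y726D libraries. Part of the exons of Efna4 (10.5% of bases) overlaps 4731419I09Rik, so both terms of this ratio are uncertain. The pair, like those of the other ratios given, was chosen after its values were seen.

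Efnb3 encodes ephrin-B3, a transmembrane ligand known as a midline and myelin-associated repellent of axons. Its level was 16.4, 17.2 and 11.8 CPM in GFP replicates 1, 2 and 3 and 24.1, 20.6 and 21.6 CPM in Ezh2-Y726D replicates 1, 2 and 3. The groups did not overlap, although GFP replicate 3 lay well under the other GFP libraries, and the difference was a log2 fold change of 0.50 (SE 0.0896, n = 3 per group, edgeR adjusted P = 7.58e-05). Efnb2, which encodes ephrin-B2, rose by less, from 29.1 to 30.7 CPM in the GFP libraries to 35.2 to 39.3 CPM with Ezh2-Y726D (log2 fold change 0.31, adjusted P = 0.000373). Efnb1, the ephrin with the highest level per kb of exon in the GFP libraries (8.83 CPM per kb), was at 29.9, 30.4 and 31.2 CPM in GFP replicates 1, 2 and 3 and 33.9, 29.1 and 28.3 CPM in Ezh2-Y726D replicates 1, 2 and 3. Its groups overlapped and its log2 fold change was 0.01 (SE 0.0703, adjusted P = 0.948).

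Efna5, which encodes the ephrin-A5 that shapes the retinal map in the brain, ranged from 5.64 to 7.48 CPM in the GFP libraries and from 8.57 to 10 CPM with Ezh2-Y726D (0.36, adjusted P = 0.0221). This call was lost without GFP replicate 3 (adjusted P = 0.0720) or without Ezh2-Y726D replicate 2 (adjusted P = 0.0956), with log2 fold changes of 0.29 and 0.30. Efna2 was low and not called, at 4.10 to 4.39 CPM in GFP and 4.58 to 5.75 CPM with Ezh2-Y726D (0.28, SE 0.149, adjusted P = 0.184). Efna1 was the most abundant ephrin-A per kb of exon, at 5.99 CPM per kb in the GFP libraries.

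The 8 EphA receptors, which bind mainly ephrin-A ligands, split in direction, with 3 higher, 3 lower and 2 not called in edgeR (background 13.9% and 13.6%), and a median log2 fold change of 0.00. DESeq2 called 1 higher, Epha6, and 1 lower, Epha7. Epha6 was at 8.24, 10.1 and 9.62 CPM in GFP replicates 1, 2 and 3 and 11.99, 11.4 and 13.2 CPM in Ezh2-Y726D replicates 1, 2 and 3. All Ezh2-Y726D libraries lay above the GFP libraries, by a log2 fold change of 0.46 (SE 0.105, n = 3 per group, edgeR adjusted P = 0.0011). The call was lost without GFP replicate 1, where the log2 fold change was 0.31 and the adjusted P 0.112. It was also lost after thinning (0.20, edgeR adjusted P = 0.421). Epha7, a receptor also known in the developing retina, was lower by a log2 fold change of -0.23 (SE 0.0536, n = 3 per group, edgeR adjusted P = 0.00157), and it was the EphA call that held with every library left out.

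The other EphA calls depended on single libraries. Epha2 (0.21, adjusted P = 0.0317) lost its call without GFP replicate 1, GFP replicate 3 or Ezh2-Y726D replicate 1 (adjusted P = 0.187, 0.0993 and 0.214). Epha8 (0.16, adjusted P = 0.0498) kept its call only without GFP replicate 1, with adjusted P values from 0.0628 to 0.211 when another library was left out. Epha3 (-0.23, adjusted P = 0.0428) kept its call only without Ezh2-Y726D replicate 1, and otherwise reached adjusted P values from 0.0605 to 0.167. Epha10, which encodes a receptor with a kinase domain held to be inactive, overlapped between groups (-0.25, adjusted P = 0.0301) and lost its call without GFP replicate 1 (0.313) or Ezh2-Y726D replicate 3 (0.239).

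Epha4, a receptor of both ephrin classes, had the highest level of the Eph family per kb of exon, at 14.4 CPM per kb in the GFP libraries. It was at 116, 112 and 121 CPM in GFP replicates 1, 2 and 3 and 115, 101 and 114 CPM in Ezh2-Y726D replicates 1, 2 and 3. The groups overlapped, with a log2 fold change of -0.07 (SE 0.0477, adjusted P = 0.303). Epha5, which forms a gradient across the retina during map formation, overlapped likewise (0.07, SE 0.0462, adjusted P = 0.284).

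Of the 5 EphB receptors, which bind ephrin-B ligands, 3 rose and 0 fell in edgeR (background 13.9% and 13.6%), with the same counts at an unadjusted P under 0.05 and 2 and 0 in DESeq2. Ephb1, known for steering ipsilateral RGC axons away from the chiasm midline, was at 30.7 to 32.0 CPM in the GFP libraries and 36.2 to 37.6 CPM with Ezh2-Y726D (0.25, adjusted P = 0.0018). Ephb2, which marks ventral retina, was at 52.8 to 61.7 and 67.2 to 69.5 CPM (0.24, adjusted P = 0.000972). Ephb6, a member with an inactive kinase domain and the EphB with the highest level per kb of exon (6.10 CPM per kb in the GFP libraries), was at 25.5, 20.8 and 22.7 CPM in GFP replicates 1, 2 and 3 and 27.2, 28.2 and 28.4 CPM in Ezh2-Y726D replicates 1, 2 and 3. Its groups did not overlap (0.23, adjusted P = 0.0152), but the call was lost without GFP replicate 2 (adjusted P = 0.103) or without Ezh2-Y726D replicate 3 (adjusted P = 0.0508). Ephb3 and Ephb4 overlapped between groups, with log2 fold changes of 0.05 (SE 0.0945) and -0.13 (SE 0.11).

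The 20 semaphorins, a family of secreted and membrane-bound ligands, moved in both directions, with 7 higher, 4 lower and 9 not called in edgeR and 7 higher and 3 lower in DESeq2. The share called lower, 20%, was near the background of 13.6%, and the share called higher, 35%, was above that of 13.9%. Sema3a, the classic secreted repellent that collapses growth cones through a neuropilin and a plexin-A, was at 11.1, 9.03 and 10.4 CPM in GFP replicates 1, 2 and 3 and 13.9, 19.1 and 14.9 CPM in Ezh2-Y726D replicates 1, 2 and 3. Each Ezh2-Y726D library exceeded each GFP library, and Ezh2-Y726D replicate 2 lay highest, with a log2 fold change of 0.59 (SE 0.112, n = 3 per group, edgeR adjusted P = 0.000144). Sema3c, a secreted semaphorin that also signals through neuropilins and plexins, had the opposite pattern, at 6.07, 4.77 and 5.64 CPM in GFP replicates 1, 2 and 3 and 3.72, 2.89 and 3.52 CPM in Ezh2-Y726D replicates 1, 2 and 3. All Ezh2-Y726D values lay under all GFP values, with a log2 fold change of -0.74 (SE 0.152, n = 3 per group, edgeR adjusted P = 0.000377).

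Sema3a (13125414 to 13602565) and Sema3c (17574281 to 17730268) both lie on the plus strand of chromosome 5, as do Sema3d (12383385 to 12588948) and Sema3e (14025276 to 14256689). The count of Sema3a relative to that of Sema3c was 1.83, 1.89 and 1.85 in the GFP libraries and 3.75, 6.61 and 4.22 with Ezh2-Y726D. This pair sets a member called higher against one called lower, so the separation of its ratio adds nothing to those 2 results. Sema3d was low, at 1.94 to 2.99 CPM in GFP and 1.39 to 1.80 CPM with Ezh2-Y726D, without overlap but outside the threshold (-0.50, SE 0.227, adjusted P = 0.112). Sema3e overlapped between groups (-0.02, SE 0.0678, adjusted P = 0.882), as its highest value, 43.6 CPM, was in GFP replicate 3.

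On chromosome 9, Sema3b rose from 27.1 to 29.2 CPM in GFP to 32.1 to 33.7 CPM with Ezh2-Y726D (0.26, adjusted P = 0.00175, and 0.0926 after thinning). Sema3f, a ligand of Nrp2 and the class 3 semaphorin with the highest level per kb of exon (9.95 CPM per kb in the GFP libraries), was at 53.4, 54.0 and 47.8 CPM in GFP replicates 1, 2 and 3 and 49.3, 49.8 and 48.6 CPM in Ezh2-Y726D replicates 1, 2 and 3. Its groups overlapped (-0.09, SE 0.0551, adjusted P = 0.273). Sema3g lay outside the threshold despite a fitted log2 fold change of 0.54, since its GFP counts were 42, 16 and 5 and its groups overlapped (SE 0.253, adjusted P = 0.119).

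Class 4 semaphorins are transmembrane ligands, several of which bind B-type plexins. Sema4d, a plexin-B ligand that is also abundant in T cells and oligodendrocytes, had the highest level of the class per kb of exon (8.93 CPM per kb in the GFP libraries) and was at 70.8, 68.0 and 66.8 CPM in GFP replicates 1, 2 and 3 and 51.9, 53.0 and 55.8 CPM in Ezh2-Y726D replicates 1, 2 and 3. The Ezh2-Y726D libraries lay below all GFP libraries, with a log2 fold change of -0.37 (SE 0.0512, n = 3 per group, edgeR adjusted P = 2e-06). The sum of 4 T cell markers was lower in the same libraries, at 33.2 to 37.1 against 55.01 to 57.3 CPM, and its part in the result for Sema4d was not tested.

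Sema4g was at 23.7, 27.0 and 24.2 CPM in GFP replicates 1, 2 and 3 and 33.9, 38.1 and 31.7 CPM in Ezh2-Y726D replicates 1, 2 and 3. Its groups did not overlap, with a log2 fold change of 0.48 (SE 0.0732, n = 3 per group, edgeR adjusted P = 6.62e-06). Sema4f, which is known in neurons at synapses, was at 8.56, 7.09 and 6.63 CPM in GFP replicates 1, 2 and 3 and 10.8, 11.0 and 10.6 CPM in Ezh2-Y726D replicates 1, 2 and 3. It likewise did not overlap between groups, with a log2 fold change of 0.45 (SE 0.107, n = 3 per group, edgeR adjusted P = 0.00159). The count of Sema4g relative to Sema4d was 0.335, 0.397 and 0.362 in the GFP libraries and 0.653, 0.718 and 0.568 with Ezh2-Y726D. Sema4a, Sema4b and Sema4c overlapped between groups and had log2 fold changes between -0.06 and 0.05.

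The remaining semaphorins comprise classes 5 to 7, of which 3 were higher, 2 lower and 2 not called (background 13.9% and 13.6%). Sema6d, a transmembrane ligand of plexin-A receptors that takes part in the crossing of RGC axons at the chiasm, was at 11.6, 11.5 and 12.4 CPM in GFP replicates 1, 2 and 3 and 8.38, 7.25 and 7.66 CPM in Ezh2-Y726D replicates 1, 2 and 3. All Ezh2-Y726D libraries were below all GFP libraries, with a log2 fold change of -0.59 (SE 0.102, n = 3 per group, edgeR adjusted P = 4.37e-05). Both Sema6b and Sema6c moved the other way. Sema6b rose from 25.4 to 30.2 CPM in GFP to 34.5 to 38.8 CPM with Ezh2-Y726D (0.40, adjusted P = 5.57e-05) and Sema6c from 8.46 to 11.7 CPM to 12.2 to 15.4 CPM (0.39, adjusted P = 0.00787). The Sema6c call was lost without Ezh2-Y726D replicate 1 (0.29, adjusted P = 0.0547). The count of Sema6b relative to Sema6d was 2.604, 2.21 and 2.09 in GFP and 4.63, 5.30 and 4.50 with Ezh2-Y726D.

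Sema5a, a transmembrane semaphorin that confines RGC axons to the optic nerve, had the highest mean of classes 5 to 7 per kb of exon (8.88 CPM per kb in the GFP libraries), within the spread of Sema7a (8.63), and was at 155, 172 and 170.3 CPM in GFP replicates 1, 2 and 3 and 202, 177 and 187 CPM in Ezh2-Y726D replicates 1, 2 and 3. The groups did not overlap, but the lowest Ezh2-Y726D library and the highest GFP library were close (0.20, adjusted P = 0.00185), and without GFP replicate 1 the adjusted P was 0.0542. Sema7a, a GPI-anchored semaphorin that signals through integrins and Plxnc1, was lower (-0.25, adjusted P = 0.00622), a call that was lost without GFP replicate 1 (-0.16, adjusted P = 0.223). Sema5b and Sema6a overlapped between groups (0.03 and 0.09).

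**Figure D2:**
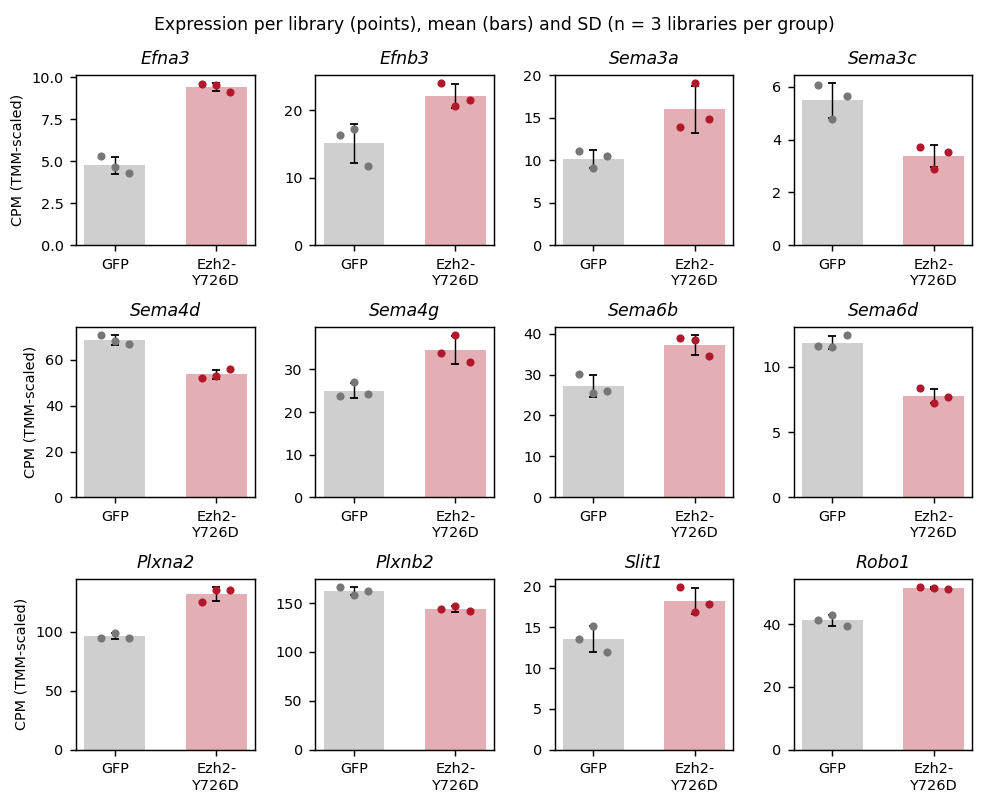
Level of 12 members in each library in TMM-scaled CPM (points), with the mean of each group (bars) and its SD (n = 3 libraries per group). Every panel shows groups that do not overlap, with Sema3c, Sema4d, Sema6d and Plxnb2 lower and the other 8 higher in the Ezh2-Y726D libraries.

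Of the 9 plexins, the signaling receptors of semaphorins, 3 were higher, 2 lower and 4 not called (background 13.9% higher and 13.6% lower). Of the 4 A-type plexins, which serve class 3 semaphorins with neuropilins and class 6 semaphorins directly, Plxna1, Plxna2 and Plxna4 rose. Plxna2, on chromosome 1 from 194618218 to 194816869, was at 94.9, 98.9 and 94.9 CPM in GFP replicates 1, 2 and 3 and 126, 135 and 136 CPM in Ezh2-Y726D replicates 1, 2 and 3. The distance between the groups was wide against the spread within them, with a log2 fold change of 0.46 (SE 0.0442, n = 3 per group, edgeR adjusted P = 3.18e-09), the smallest adjusted P among the members.

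Plxna1 was at 65.3 to 75.2 CPM in GFP and 88.0 to 93.5 CPM with Ezh2-Y726D (0.34, adjusted P = 3.31e-06). As 10.7% of its exonic bases overlap Gm26811 in GENCODE vM21, its counts are less certain. Plxna4 was at 35.3 to 46.1 and 49.3 to 50.8 CPM (0.31, adjusted P = 0.000382, and 0.0549 after thinning). Plxna3, the remaining A-type plexin, overlapped between groups (0.08, SE 0.0704, adjusted P = 0.445).

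Of the other 5 plexins, 0 rose and 2 fell in edgeR (background 13.9% and 13.6%), with the same counts at an unadjusted P under 0.05 and in DESeq2. Plxnb2, a receptor of class 4 semaphorins, had the highest level per kb of exon of all 59 members (21.0 CPM per kb in the GFP libraries) and was at 166, 158 and 162 CPM in GFP replicates 1, 2 and 3 and 144, 147 and 141 CPM in Ezh2-Y726D replicates 1, 2 and 3. All Ezh2-Y726D libraries lay below all GFP libraries, by a small amount (-0.18, SE 0.0393, adjusted P = 0.000838). Plxnd1, known as a Sema3e receptor in blood vessels and neurons, was lower as well (-0.22, adjusted P = 0.00562), but not without GFP replicate 1 (-0.17, adjusted P = 0.107). Plxnb1 (-0.03, SE 0.0537) and Plxnc1 (0.03, SE 0.0517) overlapped between groups. Plxnb3 was near the limit of detection, at 0.37 to 0.90 CPM.

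Of the neuropilins, Nrp1, the co-receptor of Sema3a and of VEGF, was at 49.0, 52.5 and 50.2 CPM in GFP replicates 1, 2 and 3 and 41.3, 44.7 and 43.1 CPM in Ezh2-Y726D replicates 1, 2 and 3. Its groups did not overlap, with a log2 fold change of -0.23 (SE 0.0566, n = 3 per group, edgeR adjusted P = 0.00279), though the call was lost after thinning (adjusted P = 0.0743). It also had the higher level of the pair per kb of exon (5.17 CPM per kb against 3.62 for Nrp2 in the GFP libraries). Nrp2, the co-receptor of Sema3f, overlapped between groups (0.06, SE 0.0566, adjusted P = 0.46). Endothelial cells are also known for Nrp1 and Plxnd1. The sum of 5 endothelial markers was 760 to 803 CPM in GFP and 690 to 741 CPM with Ezh2-Y726D, nearly all of it Kdr (mean 763 against 696 CPM). The GFP means of Pecam1, Cldn5, Cdh5 and Tek were 8.24, 4.14, 3.02 and 2.86 CPM, so the sum mostly follows Kdr. Kdr and Pecam1 were called lower. Cdh5, Cldn5 and Tek were not called, with log2 fold changes of -0.34, 0.04 and 0.33. The part of these markers in the results for Nrp1 and Plxnd1 was not tested.

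Dcc, the receptor through which netrin attracts axons, was at 34.1, 35.5 and 35.2 CPM in GFP replicates 1, 2 and 3 and 39.5, 42.5 and 42.7 CPM in Ezh2-Y726D replicates 1, 2 and 3. All Ezh2-Y726D libraries lay above the GFP libraries (0.26, SE 0.0598, adjusted P = 0.00114), but after thinning the log2 fold change was 0.17 and the adjusted P 0.186. Its ligand Ntn1 was barely detected, with 24, 5 and 0 counts in GFP replicates 1, 2 and 3 and 20, 10 and 15 counts in Ezh2-Y726D replicates 1, 2 and 3. Its level was at most 0.84 CPM in any library, so a difference in it was not detectable at this depth. Ntn4, a netrin of basement membranes and the most abundant member of this group per kb of exon (11.8 CPM per kb in the GFP libraries), was at 44.1, 42.8 and 45.3 CPM in GFP replicates 1, 2 and 3 and 47.8, 42.0 and 40.7 CPM in Ezh2-Y726D replicates 1, 2 and 3. Its groups overlapped (-0.02, SE 0.0633, adjusted P = 0.899).

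The 2 Slits and 2 Robos all had positive log2 fold changes, as had 9151 of the 18138 genes tested, and 2 of them were called higher (background 13.9%). Slit1, a secreted repellent made by RGCs in development, was at 13.5, 15.1 and 11.9 CPM in GFP replicates 1, 2 and 3 and 19.9, 16.9 and 17.9 CPM in Ezh2-Y726D replicates 1, 2 and 3. Its groups did not overlap, with a log2 fold change of 0.43 (SE 0.0888, n = 3 per group, edgeR adjusted P = 0.000428). Robo1 rose from 39.5 to 43.0 CPM in the GFP libraries to 51.2 to 51.7 CPM with Ezh2-Y726D (0.32, adjusted P = 4.39e-05).

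Slit2, by far the more abundant Slit (7.79 CPM per kb of exon in the GFP libraries against 2.28 for Slit1), was at 202, 198 and 194 CPM in GFP replicates 1, 2 and 3 and 211, 211 and 216 CPM in Ezh2-Y726D replicates 1, 2 and 3. The groups did not overlap, yet the difference was small and just outside the threshold (0.10, SE 0.0387, adjusted P = 0.0572), and inside it with no filter on low counts (adjusted P = 0.0491) or with at least 10 counts in every library (0.0388). Robo2, the main Robo of RGCs, was just outside it too (0.11, SE 0.0468, adjusted P = 0.0705), and it was called without GFP replicate 3 (adjusted P = 0.0433) or without Ezh2-Y726D replicate 1 (adjusted P = 0.0120), and with those filters (0.0427 and 0.0473). The count of Slit1 relative to Slit2 was 0.0670, 0.0761 and 0.0616 in GFP and 0.0945, 0.0799 and 0.0829 with Ezh2-Y726D, a separation narrower than that of the other ratios given here.

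**Figure D3:**
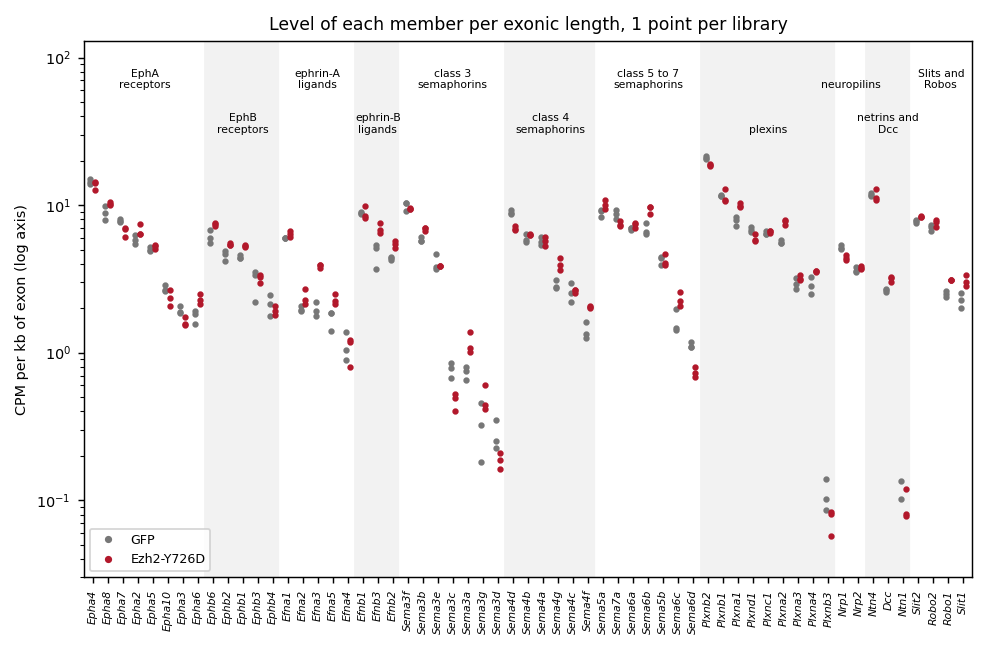
Level of each member in CPM per kb of annotated exon, on a log axis, with 1 point per library and families side by side. Plxnb2 is highest at 21.0 CPM per kb in the GFP libraries, followed by Epha4 (14.4) and Ntn4 (11.8), and Plxnb3 and Ntn1 lie lowest, with GFP replicate 3 at 0 for Ntn1 and so not drawn.

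In order of level per kb of exon, the GFP libraries ran from Plxnb2 (21.0 ± 0.511, SD, n = 3) over Epha4 (14.4 ± 0.515) to Ntn4 (11.8 ± 0.325) and Plxnb1 (11.6 ± 0.0954), the last 2 of which did not differ beyond their spread. Sema3f (9.95 ± 0.664) came next. Sema4d (8.93 ± 0.265), Sema5a (8.88 ± 0.503), Epha8 (8.87 ± 0.929), Efnb1 (8.83 ± 0.193) and Sema7a (8.63 ± 0.597) followed within each other's spread. With Ezh2-Y726D, Sema4d stood at 6.98 ± 0.260 and Sema5a at 10.1 ± 0.672 CPM per kb. The DEGs lay well below these, since Efna3 was at 1.96, Sema6d at 1.12, Sema3c at 0.769 and Sema3a at 0.735 CPM per kb in the GFP libraries.

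Set side by side by known binding partners, ligands and receptors moved together in some pairs and apart in others. Efnb2 (0.31) and Efnb3 (0.50) rose, as did their receptors Ephb1 (0.25), Ephb2 (0.24) and Ephb6 (0.23), the last not in DESeq2 (adjusted P = 0.0621). Efnb1 (0.01), Ephb3 (0.05), Ephb4 (-0.13) and Epha4 (-0.07), the receptor of both ephrin classes, were not called. Slit1 (0.43) and Robo1 (0.32) rose, while Slit2 (0.10) and Robo2 (0.11) were just outside the threshold. Sema4d (-0.37) was lower, as was Plxnb2 (-0.18), while Plxnb1 was at -0.03 and not called. For Sema3a (0.59) the plexin partners Plxna1 (0.34), Plxna2 (0.46) and Plxna4 (0.31) rose, Plxna3 (0.08) was not called and the co-receptor Nrp1 (-0.23) was lower. Sema6d (-0.59) was lower while its receptor Plxna1 rose. For Sema7a (-0.25) the receptor Plxnc1 was not called (0.03). These values are log2 fold changes on RNA of mixed cells, so they do not say which cells carried the ligand and which the receptor.

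Ratios of a pair of members within each library do not depend on how libraries are scaled. The pairs were chosen after their values were seen, and the ratios are given as descriptions. The count of Plxna2 relative to Plxnb2 was 0.571, 0.624 and 0.586 in the GFP libraries and 0.873, 0.919 and 0.960 in the Ezh2-Y726D libraries. The count of Robo1 relative to Nrp1 was 0.840, 0.818 and 0.786 in GFP and 1.25, 1.16 and 1.19 with Ezh2-Y726D. For Epha6 relative to Epha7 the ratio was 0.109, 0.130 and 0.122 against 0.199, 0.164 and 0.193. In each of these pairs every Ezh2-Y726D library was above every GFP library.

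**Figure D4:**
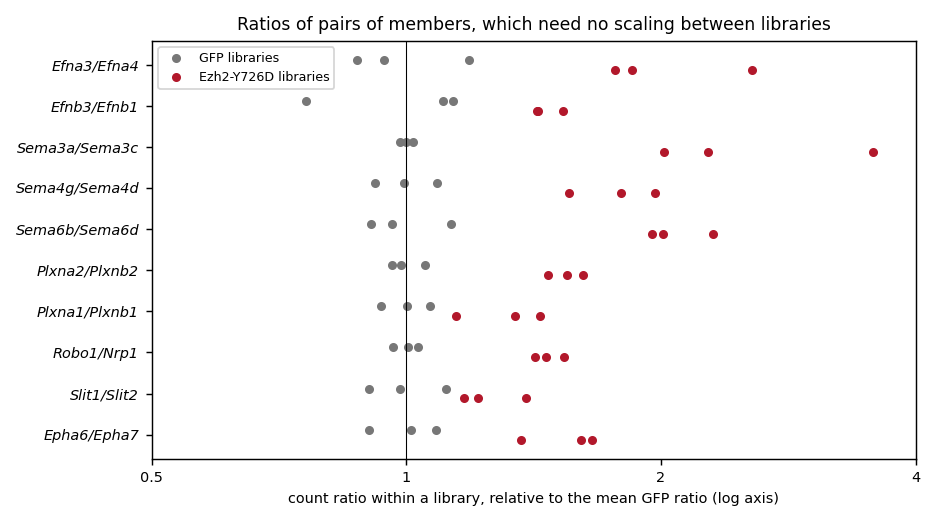
Ratio of the counts of pairs of members within each library, divided by the mean ratio of the 3 GFP libraries, on a log axis. Gray points are GFP and red points Ezh2-Y726D libraries, and the groups separate for all 10 pairs shown, most widely for Sema3a relative to Sema3c (mean ratio 1.86 against 4.86) and least for Slit1 relative to Slit2 (0.0683 against 0.0857).

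Other genes of the pathway were taken from a list that, like the members, was drawn up with earlier results of these data known. Of 17 further guidance ligands and receptors, 14 passed the filter, 5 were higher and 0 lower in edgeR (background 13.9% and 13.6%), with 6 and 0 at an unadjusted P under 0.05 and 3 and 0 in DESeq2. The higher ones were the repulsive netrin receptors Unc5d (log2 fold change 0.50, adjusted P = 2.90e-08), Unc5a (0.41, adjusted P = 0.000249) and Unc5c (0.12, adjusted P = 0.0340), the netrin receptor Dscam (0.34, adjusted P = 9.44e-06) and Rgmb (0.21, adjusted P = 0.0102), a neogenin ligand. Unc5c and Rgmb were not called by DESeq2 (adjusted P = 0.0769 and 0.0633). Of 39 genes that act inside the cell downstream of these receptors, 15 were higher and 6 lower, shares of 38.5% and 15.4% (background 13.9% and 13.6%), and DESeq2 called 14 higher and 3 lower.

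Among these signaling genes, Chn1, the Rac GTPase-activating protein α-chimaerin of the EphA4 pathway, rose (0.47, adjusted P = 5.57e-10), as did Mical2 (0.37, adjusted P = 0.000542), an oxidoreductase that disassembles actin, and Dpysl4 (0.34, adjusted P = 2.25e-07), of the CRMP family that relays Sema3a signals. Part of the Chn1 exons (11.8% of bases) overlaps another gene, as does part of those of Mical1 (15%), so both are less certain. Fes, a tyrosine kinase that binds plexin-A and is also known in myeloid cells, was lower (-0.83, adjusted P = 2.42e-08) and was the 1 DEG of this list. Mical1, a relative of Mical2, was lower as well (-0.34, adjusted P = 0.000278), and the other lower genes were Rhoa, Cdc42, Vav2 and Srgap1, with log2 fold changes from -0.25 to -0.10. The activated phagocyte markers given above were lower in the same libraries, all 5 of 5 by the same test, and their part in the result for Fes was not tested.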

How the data were processed

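Per the labels, total RNA of sorted cells was sequenced with the TruSeq Stranded Total RNA Kit, and the submitters' processing notes name STAR 2.7.0d and GRCm38. The counting tool, annotation and strand setting are not given in the sources used here. The deposited values are raw read counts for each gene in 6 libraries, whole numbers that the authors had not normalized. From these, edgeR 4.0.16 in R 4.3.3 gave TMM factors (0.647 to 1.31), CPM, the filterByExpr filter (10 counts, total 15) and the quasi-likelihood test of Ezh2-Y726D against GFP over 18138 genes, with Benjamini-Hochberg adjustment. The SE of a log2 fold change was its absolute value over the square root of F. The common biological coefficient of variation was 0.0442. Symbols were found for 32325 of 32371 identifiers, and exonic lengths, overlaps and coordinates come from GENCODE vM21 on GRCm38. No row is blank or a total, and CT010467.1 stayed in the main fit.

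The members and lists were chosen with earlier results of these data known. Values in every library are given for members with an adjusted P under 0.05 and an absolute log2 fold change of at least 0.4 and for the most abundant member of each family per kb. Dcc was added to these after its values were seen. Alternatives were RLE size factors, library totals with and without CT010467.1, removal of CT010467.1, DESeq2 1.42.0, no filter, 10 counts in every library, a replicate block, thinning to the shallowest library, a fold change over 2 and leaving out each library. Leaving out GFP replicates 2 and 3 together was chosen after seeing the data. The procedure was tested on simulated data. An exact permutation test of 3 libraries against 3 cannot give a P under 0.1. An item of 1 marker list is not reported here.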

Additional observations from a re-analysis of the deposited data

How the results depend on the processing

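Apart from library totals without scaling, of which CT010467.1 takes unequal shares, no alternative run here turned the direction of a called member. Under library totals the median of all genes tested moved to 0.492, edgeR called 0 members higher, 0 lower and 0 as DEGs (16 higher and 0 lower at an unadjusted P under 0.05), and the median log2 fold change of the members was 0.579. DESeq2 with its own size factors called 19 higher and 7 lower. Of the members called lower, 8 changed sign under library totals: Epha3 0.262, Epha7 0.274, Epha10 0.263, Sema4d 0.137, Sema7a 0.262, Plxnb2 0.323, Plxnd1 0.287 and Nrp1 0.277, all below that median shift.

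The other scalings and filters gave 21 to 25 higher and 9 or 10 lower members. Thinning to the shallowest library, which leaves fewer counts, gave 16 higher and 6 lower. Leaving out each library gave 20 to 21 higher, 6 to 10 lower (6 without GFP replicate 1) and 2 to 6 DEGs (2 without GFP replicate 3 or Ezh2-Y726D replicate 2). Leaving out GFP replicates 2 and 3 gave 19 higher, 9 lower and 2 DEGs, where the lone GFP library is assumed to vary like the other group. A fold change over 2 left 0 DEGs, since the largest log2 fold change was 0.91.

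The sources do not say whether libraries of the same number share a day or batch. The correlations of their deviations from the group means were 0.137, 0.0510 and 0.0391, and each library correlated best with its own number, a hint from the data and not the design. With the replicate block, 25 members were higher, 9 lower and 2 DEGs, as Epha3 was no longer called (-0.21, adjusted P = 0.0663) and Slit2 and Robo2 were (adjusted P = 0.0331 and 0.0443). Counts of a few reads, as for Ntn1, Plxnb3, Sema3g and Efna4, limit what can be seen of these members.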
